A study of Mus musculus with 8 samples.

Results

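Microglia, the macrophages that live in brain and spinal cord tissue, were taken from naive mice and compared between 2 genotypes on 1 expression array each. The icKO array held RNA from animals labelled as Cx47 deficient, and the control array carried the label FL. The series title describes a conditional deletion in oligodendroglia, the lineage of the myelin-forming cells, whereas the RNA measured here came from microglia. Genes were chosen for brightness alone: a gene entered if its level exceeded the array's median of named probe sets on at least 1 of the 2 naive arrays, which kept 16272 of 30701 named genes. Every value below is a log2(intensity + 16) level or a difference of such levels, icKO minus control. A difference of 1 is 2-fold on this scale, which understates the differences of dim genes.

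The whole series holds 8 arrays in 8 groups, with icKO and control each measured in 4 states, all in the strain given as C57Black/6J. Beside the naive pair, the states were EAE (experimental autoimmune encephalomyelitis, in which immunity to myelin causes an illness resembling multiple sclerosis), EAE under iguratimod (an antirheumatic drug with anti-inflammatory action), and an EAE pair marked p50, whose control carries the label F/F. The source labels call the control of the iguratimod pair wild type. The labels give neither the Cre driver and its induction nor the age and number of animals behind an array, how the microglia were isolated, or what p50 stands for. With 1 array a side there is no replicate error for any value, and no test was made.

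Immediate early genes are transcription factors and regulators whose transcripts appear within minutes of a stimulus, without new protein synthesis. Neutrophils are short-lived granulocytes of the blood that store antimicrobial proteins in granules and carry large amounts of the calcium-binding proteins S100A8 and S100A9, and in the healthy brain they are confined largely to vessels and borders. Resting microglia are known by a set of surface receptors, among them the fractalkine receptor Cx3cr1 and the purinergic receptors P2ry12 and P2ry13, which let their processes follow extracellular nucleotides.

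Over the 16272 genes the median difference between the naive arrays was -0.00, with an SD of 0.37 across genes, and 49.4% of genes were higher in icKO. At least 2-fold differences were seen in 46 genes higher in icKO (0.283%) and 296 lower (1.82%), so that 13.5% of these genes were higher. This split depended on scaling: after quantile normalization over all 8 arrays it was 120 higher and 214 lower, or 35.9% higher, and over the naive arrays alone 109 and 203, or 34.9%. Among the 8552 genes of named kinds, which leaves out pseudogenes, small RNAs, predicted genes, numbered loci, segments of antigen receptors and chemosensory receptors, 17 were higher and 17 lower, 0.199% each, but 36 were higher and 11 lower after quantile normalization over 8 arrays. The median of the named kinds was 0.05, and 60.9% of them were above 0. In the brightest of 5 equal bins of the named kinds the median was 0.19, 1347 of 1711 genes were above 0 (78.7%), and 15 genes were at least 2-fold higher and 12 lower. Median intensity was 269 on the control and 252 on the icKO array, within the range of 243 to 269 over the series. The deposited values reach 989404 on the naive control and 999946 on the naive icKO array, so they are not raw scanner counts. Where saturation would lie on their scale is not known. Rows above 65535, the limit of a raw 16-bit count and a level of about 16 on the log2 scale, were 2.23% and 2.02% of all rows. Whether probes of such rows were saturated was not tested, and this bears on the naive values of Rgs2, Dusp1, P2ry13, Cx3cr1, Selplg, Tyrobp and Ctsb given below, and on those of S100a8, S100a9 and Ngp in EAE.

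**Figure D1:**
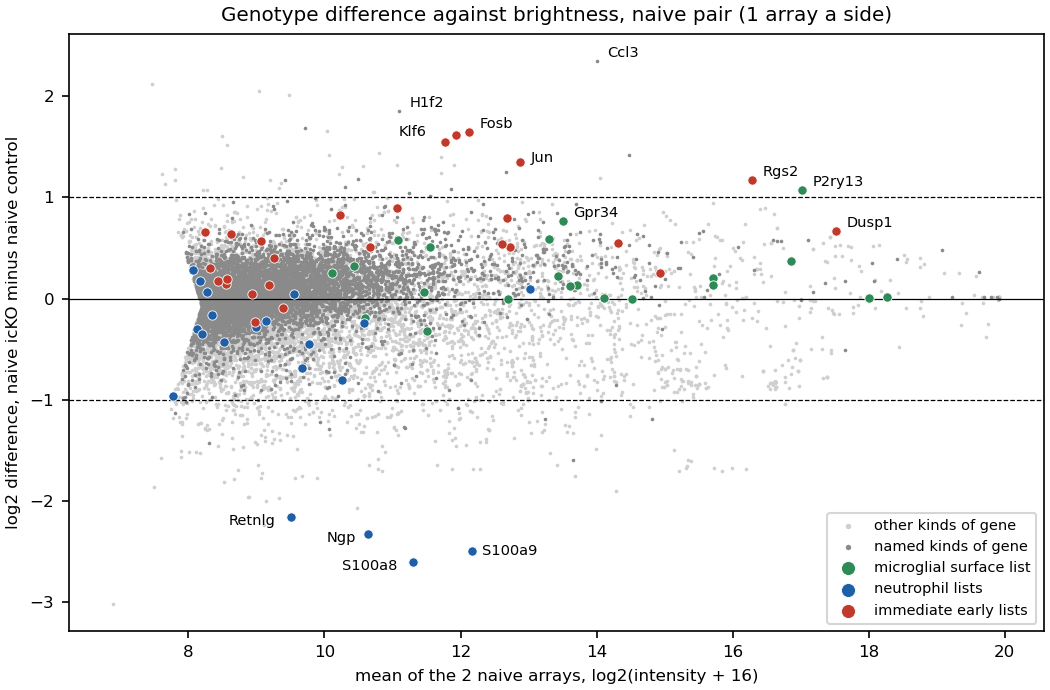
Log2 difference (naive icKO minus naive control) against the mean log2(intensity + 16) of the 2 naive arrays, 1 dot for each of the 16272 genes; dashed lines mark 2-fold. The immediate early genes lie mostly above 0 with Fosb at 1.64, the neutrophil genes S100a8, S100a9, Ngp and Retnlg lie below -2, and the microglial surface genes lie between -0.32 and 1.07.

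The immediate early genes were mostly higher in icKO. Fosb, a partner of Jun in the AP-1 transcription factor, lay at 11.31 on the control and 12.95 on the icKO array, 3.12-fold higher. Jun itself went from 12.20 to 13.55, a difference of 1.35 or 2.55-fold. Fos, the founding member of the family, lay at 10.61 and 11.51 (0.89), and Atf3, a stress-induced factor of the same class, at 9.81 and 10.64 (0.82). All 7 AP-1 genes that passed the brightness filter, of 10 measured, were above 0, with a median of 0.82, and 0.22 over the 10 measured. The median was -0.00 over all 16272 genes, 0.05 over all named kinds and 0.19 over their brightest bin. Above 0 were 60.9% of the named kinds and 78.7% of that bin, and the counts of the lists below stand beside these shares. The 3 others of the AP-1 family were Jund (0.30), Batf (0.14) and Batf3 (0.04), small differences beside the SD of 0.37.

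Of the zinc finger factors, Klf6, which is induced by growth factors and injury, differed most, with 10.99 in control and 12.54 in icKO, a 2.92-fold difference. Klf2 (0.64) and Klf4 (0.57), factors known for quiescence and macrophage polarisation, lay in the same direction. The early growth response genes differed little: Egr1 lay at 9.12 and 9.26 and Egr2 at 8.34 and 8.52. In the list of EGR, KLF and NR4A factors 6 of 12 measured genes passed the filter, and all 6 were above 0 with a median of 0.38, against 0.17 over the 12. The orphan receptors Nr4a1, Nr4a2 and Nr4a3 did not pass it, at 7.51 and 7.66, 8.11 and 7.88, and 7.32 and 7.31.

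The feedback regulators, which limit signalling once it has begun, formed the third list. Rgs1 and Rgs2 shorten signals of G protein-coupled receptors: Rgs1 lay at 11.12 and 12.74, 3.06-fold higher in icKO, and Rgs2 at 15.70 and 16.88, 2.25-fold higher. The MAP kinase phosphatase gene Dusp1 was bright on both arrays, at 17.19 and 17.86 (0.66), and Dusp6, a phosphatase for ERK, lay at 14.04 and 14.59 (0.55). The antiproliferative genes Btg1 and Btg2 differed by 0.80 and 0.51, and Zfp36, which promotes decay of cytokine mRNAs, by 0.51. In this group 2 members lay below 0, the cyclin-dependent kinase inhibitor gene Cdkn1a (-0.23) and Zfp36l2 (-0.09). Of the feedback list 13 of 25 measured genes passed the filter, 11 of them above 0, with a median of 0.54 against 0.22 over the 25.

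Pooled over the lists, 26 of 47 measured immediate early genes passed the filter, of which 24 were above 0 and 5 were at least 2-fold higher, with a median of 0.55. Of all named kinds 60.9% were above 0 and 0.199% at least 2-fold higher, and in their brightest bin 78.7% and 0.877%. Jund and Ier2 passed through the icKO array alone: 24 of the 47 were above the array median in control and 26 in icKO. Without the filter, all 47 measured genes had a median of 0.19, and 38 of them were above 0. Junb is not named in the probe table used and was not analysed here. Heat shock genes, another early stress group, were mixed: 5 of 8 that passed the filter were above 0, beside 60.9% of all named kinds. Hsp90aa1 lay at 0.61 and the inducible Hspa1a, which passed through the icKO array alone, at 0.69, while the chaperone genes Hspd1 (-0.20) and Hspa5 (-0.18) were below 0.

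**Figure D2:**
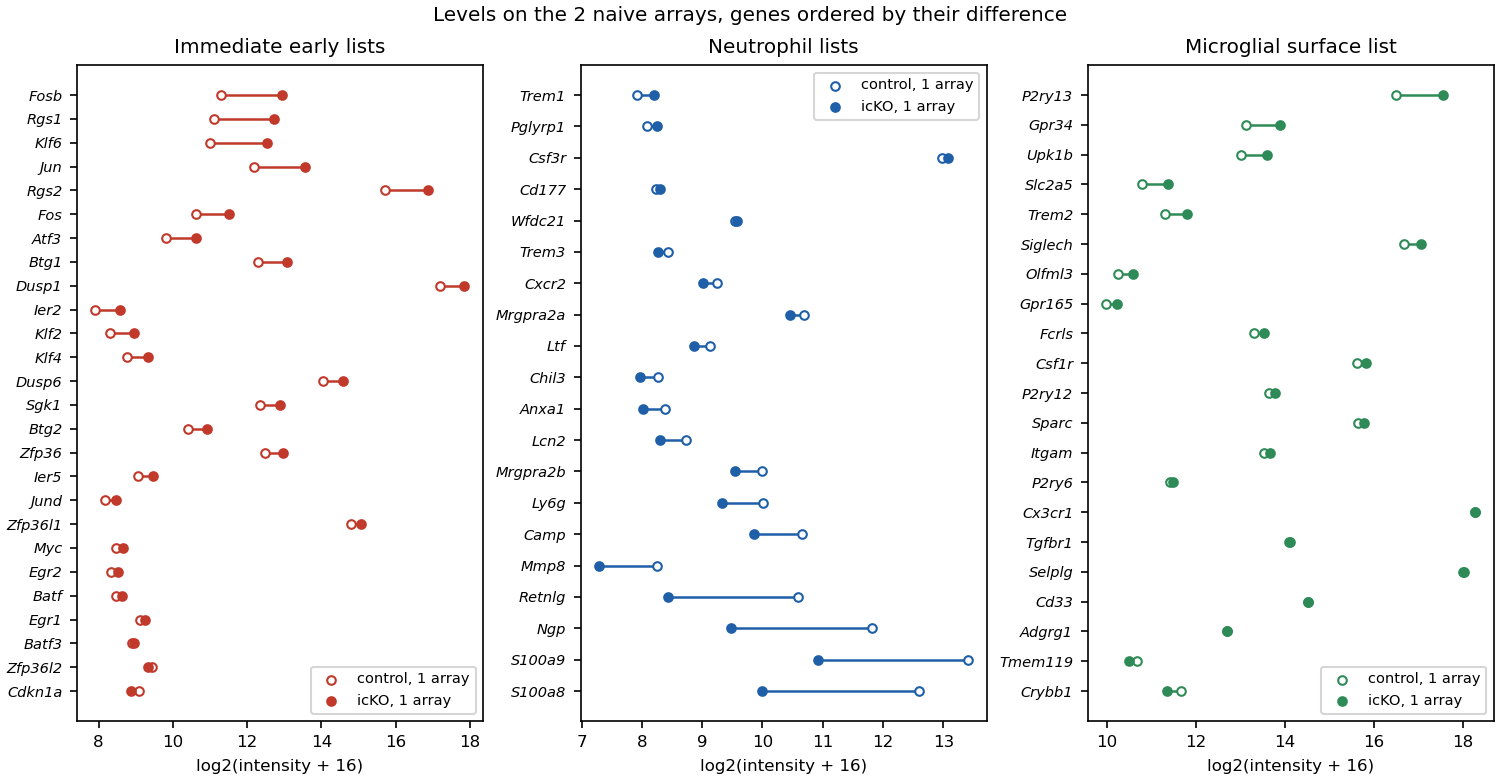
Levels in log2(intensity + 16) on the naive control array (open circles) and the naive icKO array (filled circles) for the genes of the immediate early, neutrophil and microglial surface lists that passed the filter, ordered by difference. The icKO circle lies to the right for 24 of 26 immediate early and 17 of 21 microglial genes, and to the left for 15 of 20 neutrophil genes.

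Promoters of the immediate early genes were read for motifs of factors known to induce them, since many members differed in the same direction. RefSeq promoters of assembly GRCm38.p6, reaching from 250 bases before to 50 after the start, were matched for 21 of the 26 genes. The cyclic AMP response element TGACGTCA, searched on both strands, was found in 2 of the 21, Dusp1 and Btg2, and in 1.79% of all 32851 promoters. These windows lie on the minus strand at chr17:26508423-26508722 for Dusp1 and chr1:134079106-134079405 for Btg2 and are shown 5′ to 3′, with the element in capitals.
Dusp1: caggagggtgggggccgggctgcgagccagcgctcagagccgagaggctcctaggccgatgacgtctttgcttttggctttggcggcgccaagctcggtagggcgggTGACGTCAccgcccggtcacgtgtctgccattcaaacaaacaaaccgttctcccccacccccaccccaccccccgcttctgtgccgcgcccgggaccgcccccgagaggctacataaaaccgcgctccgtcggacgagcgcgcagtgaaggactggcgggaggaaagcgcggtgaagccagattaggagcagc
Btg2: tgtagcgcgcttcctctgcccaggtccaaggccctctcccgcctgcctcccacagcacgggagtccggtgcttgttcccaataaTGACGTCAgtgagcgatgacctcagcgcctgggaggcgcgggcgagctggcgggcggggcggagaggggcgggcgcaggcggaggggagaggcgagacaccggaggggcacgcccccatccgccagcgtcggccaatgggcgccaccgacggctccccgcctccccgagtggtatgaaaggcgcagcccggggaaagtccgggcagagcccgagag
The element ends 136 bases before the start in Dusp1 and 159 bases before it in Btg2. The AP-1 site TGANTCA was found in 1 of the 21 (Zfp36l1), against 7.81% of all promoters, and the CArG box, the site of serum response factor, in 1 (Zfp36), against 1.63%. The promoter windows of Fosb and Jun held none of these 3 motifs. An NF-kB site was found in 3 of the 21 (Fosb, Fos and Egr2), or 14.3%, against 8.46% of all promoters. A match describes the letters of the window and is not a binding site measured in these cells.

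Chemokines, which attract leukocytes, held the gene with the largest positive difference of all. Ccl3, which encodes the macrophage inflammatory protein MIP-1α, lay at 12.83 in control and 15.18 in icKO in the naive state, a difference of 2.35 or 5.09-fold. Its neighbour in function, Ccl4, lay at 8.82 and 9.71 (0.89). The monocyte attractants Ccl2 (10.67 and 11.47) and Ccl12 (9.73 and 10.41) differed by 0.80 and 0.67. In the chemokine list 9 of 16 measured genes passed the filter, 7 of them above 0 and 1 at least 2-fold higher, with a median of 0.43 against 0.17 over the 16. Of all named kinds 60.9% were above 0 and 0.199% at least 2-fold higher, and 78.7% of their brightest bin were above 0. The B cell attractant Cxcl13 (-0.32) and Ccl5 (-0.14) lay below 0.

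Of the cytokines, Il1a was higher, at 12.04 and 13.29, a 2.38-fold difference, while Il1b, the other agonist of the same receptor, lay at 8.54 and 8.42 and Tnf at 8.60 and 8.49. Casp1, the inflammasome protease, lay at 11.31 and 12.04 (0.73). The list as a whole was centred near 0, with 5 of 9 genes above it and a median of 0.01, against -0.11 over the 17 measured. NF-kB subunits and feedback genes had the same median of 0.01, with 6 of 9 above 0: Nfkbiz, an inducible co-activator, differed by 0.64 and the subunit gene Rel by 0.56, whereas the inhibitor gene Nfkbia, a rapid target of the pathway, lay at 10.24 and 9.97 (-0.27).

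Histone genes were the other group with large positive differences. The linker histone genes H1f2 (10.17 and 12.03) and H1f3 (8.87 and 10.55) were 3.62-fold and 3.22-fold higher, and the core histone gene H3c7 (8.84 and 10.002) was 2.24-fold higher. All 3 lie on chromosome 13 in the RefSeq annotation, where the mouse has its main histone cluster. The linker histone genes H1f1 (7.52 and 7.62) and H1f5 (6.22 and 6.31) did not pass the filter, so that 3 of 5 measured histone genes passed. The list holds 16 genes, and those not measured are not named in the probe table used. All 3 that passed were at least 2-fold higher, against 0.199% of named kinds. Pcna, the sliding clamp of DNA replication, lay at 11.32 and 12.40 (1.08), but the other 4 cell cycle genes that passed differed by -0.19 to 0.21. Mki67 and Top2a, markers of dividing cells, were below the filter at 8.02 and 7.49 and at 7.82 and 7.77.

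The remaining genes of the 15 highest belonged to several functions. Mid1, a microtubule-associated ubiquitin ligase, lay at 13.77 and 15.19 by its brighter probe set (1.42) and at 9.53 and 9.93 by its other one (0.40). Acer3, a ceramidase, lay at 9.90 and 11.08 (1.18), and Arcn1, a subunit of the COPI vesicle coat, at 9.75 and 10.85 (1.10). Mid1 lies at the edge of the pseudoautosomal region, and its 2 probe sets disagree in size though not in sign.

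Neutrophil genes held the largest negative differences of the named kinds. S100a8 lay at 12.60 on the control and 9.997 on the icKO array, 6.06-fold lower, and its partner S100a9 at 13.41 and 10.92, 5.63-fold lower. Ngp, a protein of the secondary granules, lay at 11.81 and 9.48, 5.01-fold lower. Retnlg, a resistin-like protein secreted by granulocytes, lay at 10.59 and 8.43, 4.46-fold lower. Of the 20 neutrophil genes that passed the filter, no other reached a 2-fold difference.

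The other neutrophil genes differed less, mostly in the same direction. In the list of secondary and tertiary granule genes 7 of 10 measured passed the filter and 6 of the 7 were below 0, with a median of -0.43 against -0.29 over the 10. Mmp8 and Chil3 passed through the control array alone, since 7 were above the array median in control and 5 in icKO. The 6 genes below 0 included the collagenase gene Mmp8 (8.25 and 7.29), the cathelicidin gene Camp (10.66 and 9.86), the iron-binding lipocalin gene Lcn2 (8.74 and 8.30) and the lactoferrin gene Ltf (9.13 and 8.86). Ly6g, the surface antigen used to identify mouse neutrophils, lay at 10.01 and 9.33 (-0.68), and the chemokine receptor gene Cxcr2 at 9.25 and 9.02 (-0.22). Csf3r, the receptor of granulocyte colony-stimulating factor, which microglia also express, lay at 12.97 and 13.07. Wfdc21 (0.04), Pglyrp1 (0.18), Cd177 (0.06) and Trem1 (0.28) lay above 0.

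The primary granule genes Mpo, Elane, Prtn3, Ctsg and Ms4a3, made by promyelocytes, were below the filter on both naive arrays (0 of 5 passed). Pooled over the lists, 20 of 32 measured neutrophil genes passed, 15 of them below 0, with a median of -0.33, and 4 were at least 2-fold lower, against 0.199% of all named kinds. Some passed through 1 array alone, since 18 of the 32 were above the array median in control and 17 in icKO. Over all 32 the median was -0.24. Summed over the measured genes, the intensity of the neutrophil lists was 41910 on the control and 21937 on the icKO array. The alarmin list made up 20475 and 5047 of these sums. Secondary and tertiary granule genes made up 7542 and 3523, and the surface receptor list, which includes Csf3r, 12982 and 12560. A few bright genes thus weigh heavily in such a sum. In RNA from a whole cell preparation, fewer neutrophils and less of these transcripts per cell cannot be told apart.

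Promoters of these genes were read for the sites of C/EBP and PU.1, factors known to drive granule genes in maturing granulocytes. RefSeq promoters of GRCm38.p6 were matched for 18 of the 20 genes. The C/EBP core TTGCNNAA, on either strand, was found in 8 of the 18 (44.4%) against 10.8% of all promoters, and the PU.1 site GAGGAAGT in 3 (16.7%) against 3.20%. An NF-kB site was found in 4 of the 18 (22.2%), against 8.46% of all promoters. The same C/EBP letters were in 3 of 15 matched microglial surface promoters. The 4 genes with a 2-fold difference are shown 5′ to 3′ with both motifs in capitals. They are at chr3:90668821-90669120 (S100a8, plus strand), chr3:90695672-90695971 (S100a9, minus strand), chr9:110419558-110419857 (Ngp, plus strand) and chr16:48872358-48872657 (Retnlg, plus strand).
S100a8: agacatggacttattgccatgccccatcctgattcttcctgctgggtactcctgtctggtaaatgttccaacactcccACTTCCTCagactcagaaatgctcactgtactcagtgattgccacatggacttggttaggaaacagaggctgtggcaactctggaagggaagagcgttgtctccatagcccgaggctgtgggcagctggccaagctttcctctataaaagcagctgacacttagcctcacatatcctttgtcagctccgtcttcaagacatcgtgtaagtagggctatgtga
S100a9: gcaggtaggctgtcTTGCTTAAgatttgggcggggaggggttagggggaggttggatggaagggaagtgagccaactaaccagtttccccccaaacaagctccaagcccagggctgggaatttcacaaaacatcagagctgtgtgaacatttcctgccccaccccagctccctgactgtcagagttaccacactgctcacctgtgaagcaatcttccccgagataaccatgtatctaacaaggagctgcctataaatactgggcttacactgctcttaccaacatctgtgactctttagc
Ngp: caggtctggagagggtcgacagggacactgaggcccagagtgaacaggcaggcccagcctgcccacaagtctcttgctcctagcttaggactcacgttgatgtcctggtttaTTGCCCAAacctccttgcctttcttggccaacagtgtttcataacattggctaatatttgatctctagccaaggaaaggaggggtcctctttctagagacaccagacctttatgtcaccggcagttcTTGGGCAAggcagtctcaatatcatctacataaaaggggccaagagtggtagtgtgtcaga
Retnlg: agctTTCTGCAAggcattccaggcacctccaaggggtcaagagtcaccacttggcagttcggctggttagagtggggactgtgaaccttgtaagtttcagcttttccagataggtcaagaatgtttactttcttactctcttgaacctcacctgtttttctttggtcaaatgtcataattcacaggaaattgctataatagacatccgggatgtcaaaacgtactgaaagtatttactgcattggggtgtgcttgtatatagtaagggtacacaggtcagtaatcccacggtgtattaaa
The capitals mark a PU.1 site in S100a8 and C/EBP cores in the other 3, of which Ngp holds 2. As above, a match describes the window only.

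Microglial surface and homeostatic genes were close between the genotypes, and most lay slightly above 0. Cx3cr1 lay at 18.26 and 18.27, Selplg, the P-selectin ligand, at 18.002 and 18.01, and the TGF-beta receptor gene Tgfbr1 at 14.10 and 14.11. Csf1r, the receptor for the survival factor of microglia, lay at 15.61 and 15.81, and P2ry12 at 13.64 and 13.78. Tmem119, a marker of resident microglia, lay at 10.69 and 10.50, and Crybb1 at 11.66 and 11.35, the lowest difference of the list (-0.32). These differences are within the SD of 0.37 over all genes. The levels of Cx3cr1 and Selplg lie above 65535, the limit of a raw 16-bit count, and whether their probes were saturated was not tested.

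The largest difference of the list was in P2ry13, a receptor for ADP, at 16.49 and 17.56 (1.07, 2.10-fold). Gpr34, a lysophosphatidylserine receptor gene, lay at 13.13 and 13.89 (0.77), Upk1b at 13.01 and 13.60 (0.59), the fructose transporter gene Slc2a5 at 10.80 and 11.37 (0.57) and Trem2, a lipid-sensing receptor, at 11.30 and 11.81 (0.51). All 21 measured genes passed the filter, 17 of them above 0, with a median of 0.14, against 0.05 over all named kinds and 0.19 over their brightest bin, where 78.7% of genes were above 0. After quantile normalization over all 8 arrays the median of the list was 0.38. The same normalization also raised all named kinds, to a median of 0.13 with 75.9% above 0. In the list of purinergic receptors and ectoenzymes P2ry13 stood apart: P2rx4 followed at 0.31, and the ATP-hydrolysing Entpd1 and the other 4 differed by -0.05 to 0.14.

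Transcription factors of microglia lay above 0 in 11 of 11 cases that passed, of 13 measured, with a median of 0.27, against 0.25 over the 13. This share, and those of the lists described below, stand beside 60.9% above 0 in all named kinds and 78.7% in their brightest bin. Mef2c (13.27 and 13.85) and Mef2a (14.68 and 15.14), which shape microglial enhancers, differed by 0.58 and 0.46, and Irf8 (10.76 and 11.06), Spi1, which encodes PU.1 (9.21 and 9.34), and Sall1 (13.14 and 13.33) by 0.30, 0.13 and 0.18. Disease-associated genes, which microglia raise around plaques and damaged myelin, passed the filter in 22 of 22 measured cases, 16 of them above 0, with a median of 0.20. The cysteine protease gene Ctsz (13.23 and 14.16), the tetraspanin gene Cd63 (12.39 and 13.18) and the adaptor gene Tyrobp (16.30 and 16.89) differed by 0.94, 0.79 and 0.58. Clec7a lay at 9.12 and 9.65, whereas Itgax (9.10 and 9.02), Axl (9.16 and 9.10), Lpl (8.22 and 8.18) and Cst7 (8.85 and 8.88) differed by less than 0.1.

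Markers of oligodendrocytes, astrocytes and neurons were mostly below the filter on both arrays. Of the oligodendrocyte genes 1 of 10 measured passed, Mag (8.40 and 8.42), while Mbp (7.87 and 7.91), Mog and Cnp did not. Astrocyte genes passed in 1 of 10 cases (Slc1a3, 9.07 and 9.11) and neuronal genes in 0 of 9. Among the connexins Gjc3, a gap junction gene of oligodendrocytes, was the 1 of 11 that passed, at 8.58 and 7.99 (-0.59), and it passed through the control array alone. The genotype labels were not checked against expression.

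Of blood cells other than neutrophils, monocyte genes lay lowest. In this list, which shares Chil3 with the neutrophil lists, 10 of 14 measured genes passed, 9 of them below 0, with a median of -0.37 against -0.27 over the 14. Some passed through the control array alone, since 9 were above the array median in control and 6 in icKO. The chemokine receptor gene Ccr2 lay at 8.73 and 8.06, the lysozyme gene Lyz2 at 11.35 and 10.70, and Ly6c2, the antigen of inflammatory monocytes, at 10.02 and 9.57. The summed intensity of the monocyte list was 7482 in control and 5485 in icKO. Border-associated macrophage genes were below 0 in 7 of 7 cases that passed, with a median of -0.13 (-0.17 over the 11 measured), but in 4 of 7 after quantile normalization, with Mrc1 at 8.48 and 8.31 and Cd163 at 8.66 and 8.58. T and NK lymphocyte genes passed in 4 of 14 cases with a median of -0.07, whose sign depended on the scaling, and Klrb1c of natural killer cells was the lowest at -0.54. Of the B lymphocyte genes 2 of 9 measured passed, the immunoglobulin heavy chain gene Ighm (13.80 and 14.21) and the receptor component gene Cd79b (9.12 and 9.18). Endothelial and mural genes passed in 4 of 14 cases, with a median of -0.23, among them Ly6c1 at 10.35 and 9.85. The part of these markers in the differences of other genes was not tested.

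Interferon-response genes lay below 0 in 11 of 13 cases that passed, of 18 measured, with a median of -0.27 (-0.22 over the 18), and in 8 of 13 after quantile normalization. The lowest were the antiviral membrane protein gene Ifitm3 (9.06 and 8.46), Ifi27l2a (9.62 and 9.05) and the guanylate-binding protein gene Gbp3 (9.03 and 8.62), while Isg15 (8.43 and 8.42) and Ifit3 (9.88 and 10.01) differed little. MHC class II genes were mixed, with H2-Aa at 9.03 and 8.60, H2-Ab1 at 10.21 and 9.88 and the peptide exchange gene H2-DMb1 at 9.84 and 10.07, and a median of -0.16 over 7 genes. MHC class I genes had a median of 0.05 over 9. None of these genes reached a 2-fold difference.

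Lists of housekeeping and phagocytic function lay a little above 0. Respiratory chain and ATP synthase genes were above 0 in 15 of 15 cases, with a median of 0.26 and a highest value of 0.50 in Uqcrc1. Lysosomal and phagocytosis genes were above 0 in 13 of 14 cases that passed, with a median of 0.31 (0.30 over the 17 measured), led by the cathepsin genes Ctsc (10.81 and 11.50) and Ctsb (15.83 and 16.34) and the membrane protein gene Lamp2 (13.90 and 14.40). Complement genes were above 0 in 8 of 9 cases, with C3ar1, the receptor of the C3a fragment, at 12.17 and 12.85 and the C1q genes C1qa, C1qb and C1qc at 0.24, 0.24 and 0.19. Fc receptor genes were above 0 in 5 of 5 cases that passed, with Fcgr3 at 14.51 and 15.04. Cytosolic ribosomal protein genes had a median of 0.36 over 8 genes, and glycolysis genes one of -0.02 over 10, whose sign depended on the scaling. The brightest bin of named kinds had a median of 0.19.

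**Figure D3:**
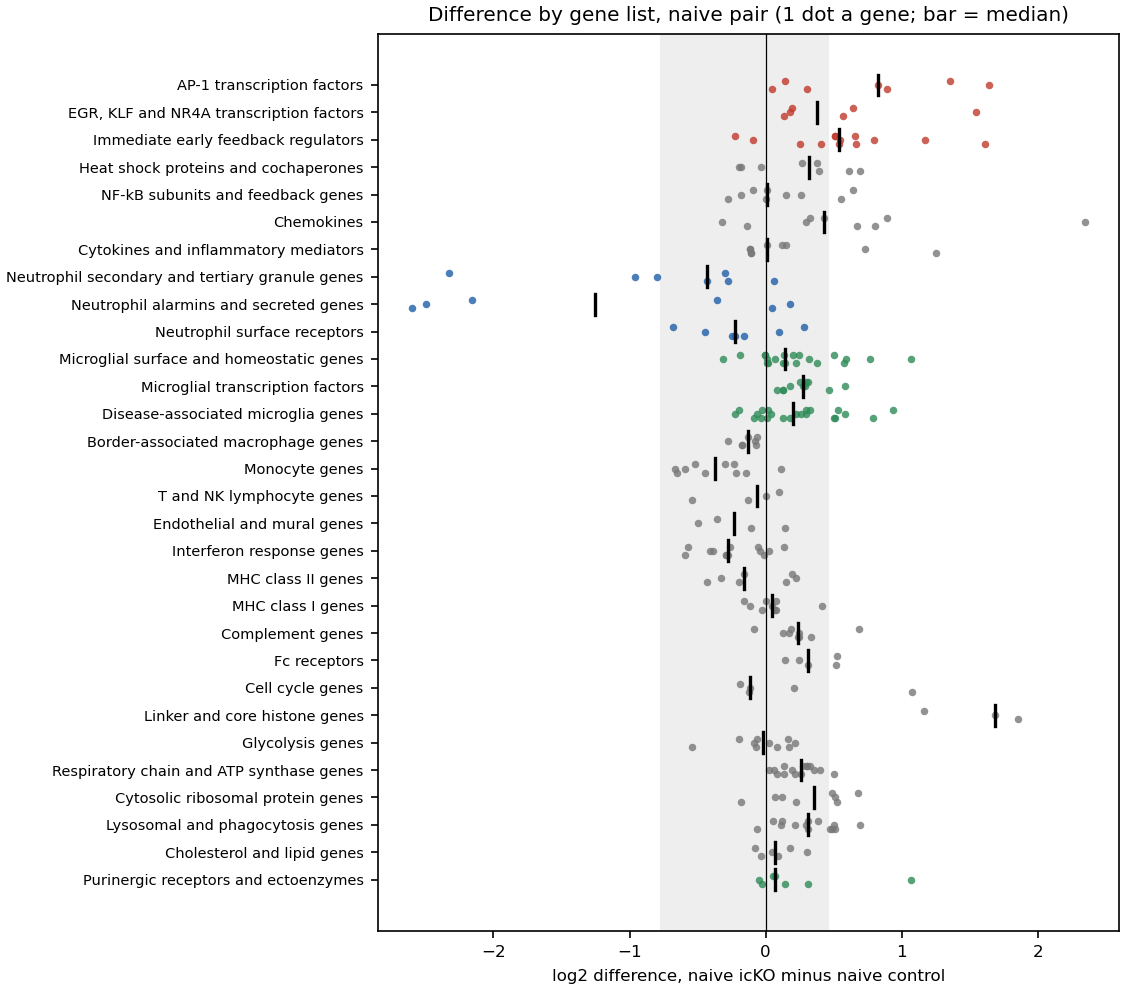
Log2 differences, naive icKO minus naive control, by gene list for lists with 3 or more genes that passed the filter, 1 dot a gene; the bar is the list's median, grey shading spans the 5th to 95th percentile of all 16272 genes (-0.77 to 0.46), and red, blue and green mark immediate early, neutrophil and microglial lists. The AP-1 (0.82), immediate early feedback (0.54) and histone (1.68) medians lie to the right of the shading and the neutrophil alarmin median (-1.26) to its left.

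Below the neutrophil genes, the 15 lowest held genes known mainly from testis or from multicopy families. Csprs, a gene of a repeated locus, lay at 14.44 and 12.85, 3.01-fold lower, and at 11.72 and 10.62 by its other probe set. Srsx (10.55 and 9.33), Astx5 (12.51 and 11.43), Cylc2 (9.53 and 8.53) and Spopfm2 (11.83 and 10.55) were 2.003-fold to 2.42-fold lower. Orly, on the Y chromosome, has 15 probe sets, all lower, with differences of -1.19 to -0.98. Several of them hold identical values, so they are not 15 separate readings. Ear14, an eosinophil-associated ribonuclease, lay at 10.71 and 9.43, and the major urinary protein gene Mup6 at 10.68 and 9.72. Copies within such families can share probes, which makes their values uncertain.

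Of the 15 lowest, 3 are single genes with a second probe set that differed little. The death receptor gene Fas lay at 14.58 and 13.56 by its brighter probe set and at 7.57 and 7.45 by the other. The semaphorin co-receptor gene Nrp2 lay at 13.83 and 12.64, and at 8.86 and 8.73. Znfx1, an antiviral helicase, lay at 11.81 and 10.54, and at 9.08 and 9.19. For these genes the difference of about 2-fold rests on 1 of 2 probe sets.

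Most 2-fold lower genes were not of the named kinds. Chemosensory receptors, the olfactory, vomeronasal and taste receptor genes, made up 97 of the 296, or 10.7% of the 909 that passed the filter, with a median of -0.43. Pseudogenes were 2-fold lower in 37 of 575 cases (6.43%) and predicted genes and numbered loci in 122 of 5407 (2.26%), against 17 of 8552 named kinds. Small RNAs went both ways, with 16 lower and 10 higher of 621. By position, 27 of 67 genes on Y were 2-fold lower (40.3%), with a median of -0.86, and 62 of 1485 on chromosome 7 (4.18%). Of the 27 on Y 1 was of the named kinds, and of the 62 on chromosome 7 it was 0. The single-copy Y genes Eif2s3y (9.44 and 10.17), Uty (8.98 and 9.60) and Kdm5d (9.13 and 9.22) were not lower, and Xist was dim on both naive arrays, at 8.30 and 8.05. The lower genes were also concentrated among bright ones, with 143 among the 3255 genes of the brightest of 5 bins (4.39%), where 29.3% of genes were of named kinds.

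**Figure D4:**
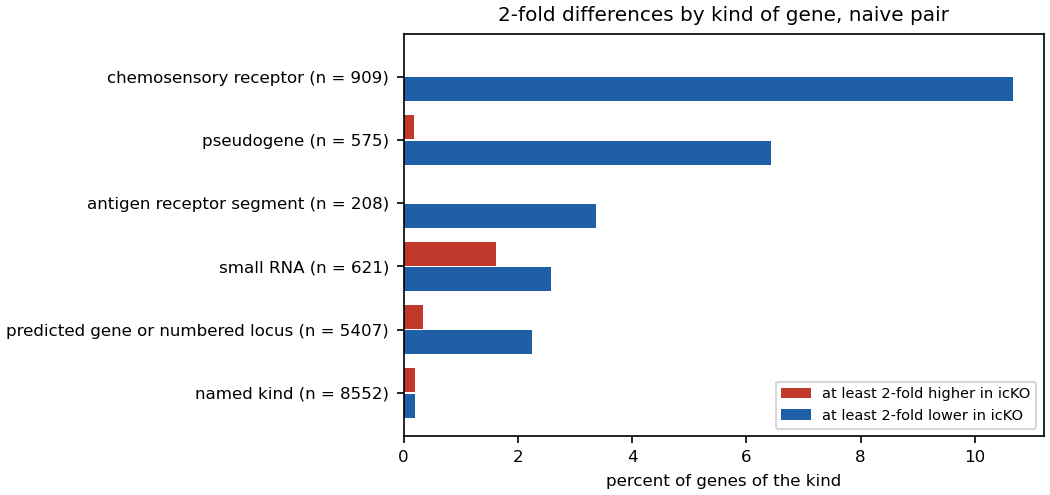
Percent of genes at least 2-fold higher (red) or lower (blue) on the naive icKO array, by kind of gene, with the number of genes of each kind that passed the filter. Chemosensory receptors (10.7% lower) and pseudogenes (6.43% lower) lie far above the named kinds (0.199% in each direction).

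The other genotype pairs, which share no array with the naive pair, were then read for the same genes. The p50 arrays differ from the other 6 in sex-linked transcripts. Xist lay at 15.90 and 16.64 in the p50 pair and between 7.71 and 8.30 on the others, and the Y gene Eif2s3y at 7.29 and 7.40 in the p50 pair. Over the same 16272 genes, 171 were at least 2-fold higher in icKO in EAE (1.05%) and 87 lower (0.535%). Under iguratimod 200 were higher (1.23%) and 322 lower (1.98%), and in the p50 pair 41 (0.252%) and 10 (0.0615%). Of the 17 named-kind genes 2-fold higher in the naive pair, 7 were so in EAE (41.2% of the naive list and 14.9% of the 47 in EAE), and 7 in the p50 pair (41.2%, and 35.0% of 20). Under iguratimod it was 0 of 17, among 110 in that pair. The 47, 20 and 110 were counted over all 8552 genes of named kinds, a small share in each pair, and 0 of 17 is close to that share. Ccl3, Fosb, H1f2, Il1a, Jun and Klf6 were 2-fold higher in 3 of the 4 pairs, and no gene in all 4.

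Ccl3 lay at 12.31 in control and 15.86 in icKO in EAE, at 13.78 and 14.53 under iguratimod, and at 13.89 and 15.92 in the p50 pair. On all 4 icKO arrays it was above 14, and on all 4 control arrays below 14. Fosb lay at 8.66 and 12.08 in EAE, 10.38 and 10.73 under iguratimod, and 13.38 and 14.86 in the p50 pair, so that the genotype groups overlapped across states while icKO was higher within each. Klf6 lay at 11.50 and 12.65, 11.67 and 11.88, and 12.31 and 13.67 in the same order. The immediate early list had medians of 0.97 in EAE, 0.17 under iguratimod and 0.62 in the p50 pair, and 14 of its 26 genes were higher in icKO in all 4 pairs, against 6.45% of named kinds. Those 14 include Fos, Fosb, Atf3, Klf4, Klf6, Dusp1, Rgs2 and Btg2 but not Jun (-0.07 under iguratimod) or Rgs1 (-0.06).

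The histone genes H1f2, H1f3 and H3c7 were likewise higher in every pair. H1f2 lay at 9.27 and 10.44 in EAE, 9.68 and 10.37 under iguratimod, and 10.48 and 11.54 in the p50 pair. P2ry13 differed less outside the naive pair, with 15.86 and 16.29, 16.49 and 16.48, and 16.51 and 16.62, so that the naive icKO array was the highest of the 8. The microglial surface list, above 0 in 17 of 21 genes in the naive pair, was above 0 in 1 of 21 in EAE, 10 under iguratimod and 3 in the p50 pair, with medians of -0.32, -0.02 and -0.21. Of all named kinds 42.7%, 61.4% and 39.1% were above 0 in these pairs.

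Neutrophil genes did not keep their direction. S100a8 lay at 18.88 in control and 15.12 in icKO in EAE, at 13.59 and 15.40 under iguratimod, and at 10.22 and 11.31 in the p50 pair. The icKO array was thus lower in the naive and EAE pairs and higher in the other two. S100a9 (17.69 and 14.90, 14.03 and 15.25, 10.55 and 12.003) and Ngp (16.62 and 14.65, 12.54 and 14.78, 9.87 and 11.27) gave the same order. The median over the neutrophil lists was -1.18 in EAE, 0.72 under iguratimod and 0.20 in the p50 pair, against -0.33 in the naive pair. The summed intensity of the neutrophil lists was 961130 and 128560 in EAE, 57479 and 156202 under iguratimod, and 33207 and 37462 in the p50 pair. Most of the p50 sums came from the surface receptor list (24152 and 21267), which includes Csf3r, a gene microglia also express. The alarmin list gave 4929 and 9324 in that pair.

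Of the 15 highest genes of the naive pair, 15 had the same sign in EAE, 11 under iguratimod and 13 in the p50 pair, and 9 in all of them. Of the 15 lowest, 10, 11 and 3 did, and only Srsx and Cylc2 in all 4 pairs. In the EAE, iguratimod and p50 pairs 42.7%, 61.4% and 39.1% of all named kinds were above 0. Below 0 were 57.2%, 38.6% and 60.9% of them. Arcn1 (10.38 and 10.51 in EAE) illustrates a higher gene with small differences elsewhere, at 0.13 in EAE, 0.02 under iguratimod and -0.15 in the p50 pair. Acer3 (11.14 and 11.17 in EAE) was near 0 in EAE (0.04) and in the p50 pair (-0.04), but differed by 0.67 under iguratimod. Csprs was lower in the naive pair and higher in EAE (12.57 and 13.17). Orly, a gene on Y, was dim in the p50 pair (8.27 and 8.83), where its sign differs from the naive pair.

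**Figure D5:**
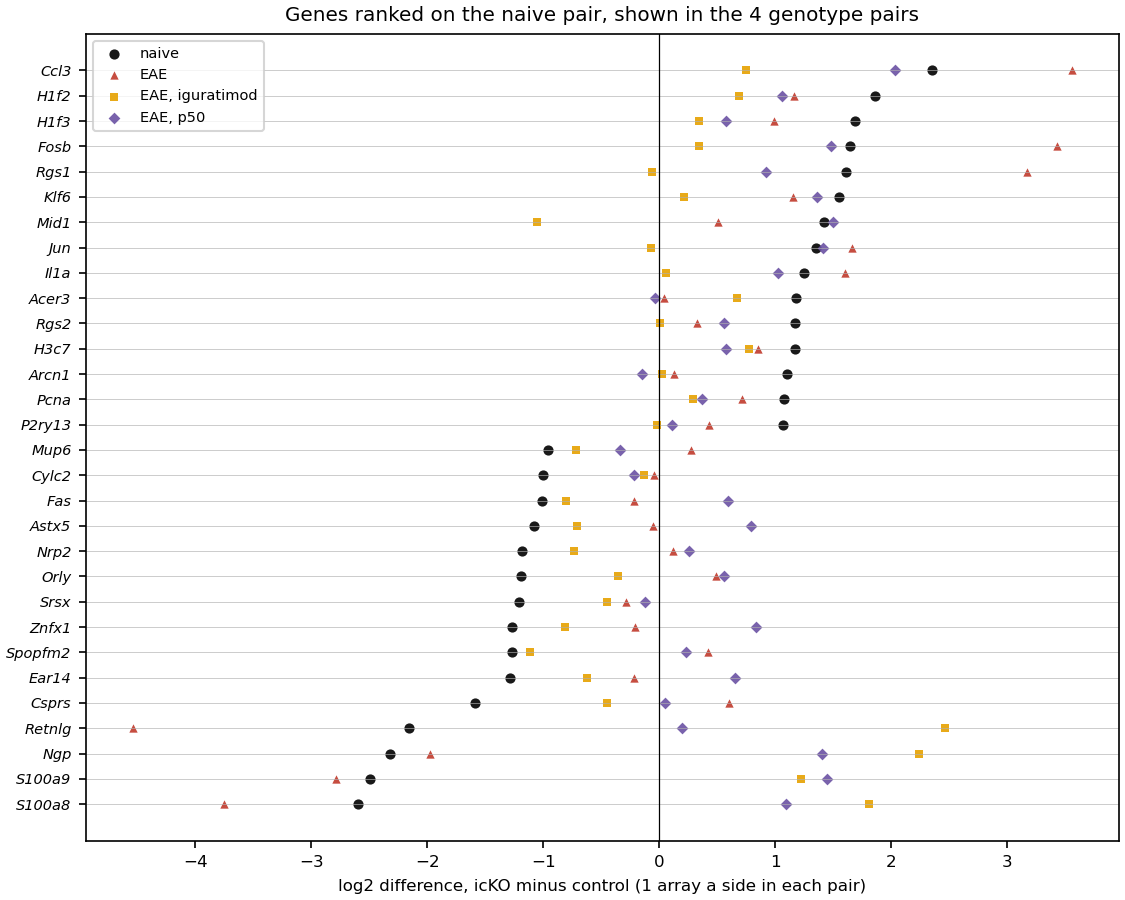
Log2 difference, icKO minus control, in the naive (black), EAE (red), iguratimod (yellow) and p50 (purple) pairs, 1 array a side, for the 15 highest and 15 lowest genes of the naive pair. Ccl3 lies to the right of 0 in all pairs (0.74 to 3.56), whereas S100a8 lies at -2.60 and -3.76 in the naive and EAE pairs and at 1.81 and 1.09 in the other two.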

How the data were processed

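Microglial RNA from 8 samples, 1 in each group, was biotin-labelled through a whole-transcript pico kit and hybridised to mouse Affymetrix arrays, per the labels' protocols. The deposited table gives linear intensities for 65956 rows. Affymetrix Expression Console is listed in the submitters' processing notes, and its summarisation and normalization settings are not given in the sources used here. Absence was not called, and precision is limited by having 1 array a group.

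Rows were named through the platform's probe table, with 1138 symbols updated through RefSeq records of GRCm38.p6. Of the rows, 31258 carried 1 symbol, 1492 several and 33206 none, and the first gave 30701 genes, 442 of them with several probe sets, represented by the brightest over the 8 arrays. Deposited intensities were turned into log2(intensity + 16) without further scaling, and a gene entered if 1 naive array or both had it above that array's 50th percentile over named probe sets.

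The comparison is a difference between 1 array and 1 array, so no test was run, and genes were counted at 2-fold. Named genes were the 15 highest and 15 lowest of named kinds whose brighter array lay above the 60th percentile of the genes that entered, plus members of the 38 gene lists. Genes, lists and motifs were chosen with earlier results of these data known. The counting was checked on a copy of the naive control array with planted differences and no noise, which says nothing about the spread between arrays. Alternatives were other pseudocounts, filters, scalings, probe-set means and named kinds only. Python 3.11.15, pandas 2.3.3 and statsmodels 0.14.6 were used.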

Additional observations from a re-analysis of the deposited data

Results flagged for a closer look

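Several genes differed in opposite directions between the naive pair and another genotype pair, each 1 array a side, and none of these differences between pairs was tested. Under iguratimod, the difference icKO minus control was 1.81 for S100a8, 1.22 for S100a9, 2.24 for Ngp and 2.46 for Retnlg, where the naive pair had -2.60, -2.49, -2.33 and -2.16. In the p50 pair it was 1.09 for S100a8, 1.45 for S100a9 and 1.40 for Ngp. The neutrophil alarmin list had a median of 0.998 under iguratimod and -1.26 in the naive pair. Mid1 was 1.42 in the naive pair and -1.06 under iguratimod.

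Rows without a single gene symbol were left out of the comparison. Of 34698 such rows 16704 were above the filter, and 122 of these were at least 2-fold brighter on the naive icKO array (0.730%) and 720 dimmer (4.31%), with a median of -0.11.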

How the results depend on the processing

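Of the results with alternatives, the median over all genes changed sign, from -0.00 to 0.02 with a filter at the 70th percentile, 0.05 in named kinds, and 0.08, 0.08, 0.06 and 0.01 under quantile normalization over 8 and 2 arrays, centring and a lowess curve. The T and NK lymphocyte and glycolysis medians also changed sign with scaling. Genotype paired by state over all 8 arrays was not fitted, since that does not test the naive pair. The count of genes at least 2-fold higher was 46 as reported, 120 and 109 after quantile normalization over 8 and over 2 arrays, and 17 in named kinds only. In an alternative added after the data were seen, it was 36 in named kinds after quantile normalization over 8 arrays. The count of lower genes was 296 as reported, 17 in named kinds only, and, as alternatives added after the data were seen, 11 in named kinds after quantile normalization and 13 in named kinds without the neutrophil lists. The immediate early median was 0.55 as reported, 0.19 over all measured members without a filter, and 0.74 and 0.71 after quantile normalization over 8 and 2 arrays. The neutrophil median was -0.33 as reported and -0.56 with a filter at the 70th percentile. The microglial surface median was 0.14 as reported and 0.38 and 0.37 after quantile normalization. Over all named kinds the median was 0.05 as reported and 0.13 and 0.12 under the same normalizations. Apart from fewer genes entering under a filter or a restriction to kinds, the cause was not tested. Of 358 values for 40 genes under 9 settings, 347 moved by less than the SD over genes and 11 by more, in Dusp1, Fas, Mid1, Nrp2, Orly, P2ry13, Rgs2 and Znfx1. Brightness limits dim genes, whose differences the added 16 shrinks, and without replicates the spread between arrays of 1 genotype is unknown.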
